A study of Mus musculus with 6 samples.

Results

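The miR-199, miR-214, miR-143 and miR-145 miRNAs were followed in CT26 cells, an established mouse colorectal cancer line. They were taken as every mouse probe whose miRNA name, without arm and locus number, was miR-199a, miR-199b, miR-214, miR-143, miR-145 or miR-145a. This gave 9 of the 1126 mouse probes on the array. The rule went by the names and not the values of the probes, but the members were chosen with earlier results of these data known. A probe counted as measured where the average background-subtracted intensity of its 4 spots reached 50 on 3 or more of the 6 arrays. By that rule 7 of the 9 were measured and 2, miR-143-5p and miR-145a-3p, were low.

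All cells carried the plasmid pSUPER gfp-neo. In the line here called the knockdown it held a hairpin that targets TGF-β1, a secreted cytokine that signals through SMAD proteins, and in the control line a control hairpin. Both lines were sampled at 24, 48 and 72 h on single arrays from cultures grown separately, so the 3 arrays of a line are also its 3 time points, and their spread includes any change with time. What the hours count from is not settled, since the transfection is called stable, and the array does not measure the Tgfb1 transcript, so the knockdown could not be checked.

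These miRNAs are known as products of mesenchymal cells. Mir199a-2 and Mir214 are processed from 1 long transcript, Dnm3os, which the transcription factor Twist1 drives in the mouse embryo, and miR-143 and miR-145 are processed together from another transcript that serum response factor and myocardin drive in smooth muscle. In mouse colon, miR-143 and miR-145 are known from the smooth muscle and fibroblasts under the epithelium rather than from the epithelium itself. TGF-β is known to raise miR-143 and miR-145 in human vascular smooth muscle cells. A miRNA recognises its targets mainly through its seed, bases 2 to 8 of the mature strand, and either strand (arm, 5p or 3p) of the hairpin can become the mature miRNA.

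The mature sequences that the results turn on are given from RefSeq (GRCm38.p6), 5′ to 3′, with the seed in capitals, because arms of 1 hairpin, copies of 1 miRNA and miRNAs with 1 seed are compared below. Of the 10 mature miRNAs named on the 9 probes, 5 had an entry.
miR-199a-5p: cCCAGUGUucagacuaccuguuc
miR-199a-3p: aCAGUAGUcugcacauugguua
miR-199b-3p: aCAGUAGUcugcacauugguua
miR-214-5p: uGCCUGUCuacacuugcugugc
miR-214-3p: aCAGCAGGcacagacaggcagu
miR-761: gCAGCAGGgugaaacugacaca
The letters of miR-199a-3p and miR-199b-3p are the same, which is why 1 probe stands for both. miR-761 is no member and is shown because its seed is that of miR-214-3p. It was the only miRNA outside the members found with a seed printed here, in a search that did not cover every chromosome. Members without an entry, among them miR-199b-5p, were not compared by seed. The seeds of miR-199a-3p and miR-214-3p share 5 of 7 letters by position.

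The hairpins that encode miR-199a are 2: Mir199a-2, whose 5p arm lies at chr1:162217844-162217866 and 3p arm at chr1:162217883-162217904 on the plus strand, and Mir199a-1, whose 5p arm lies at chr9:21496537-21496559 and 3p arm at chr9:21496498-21496519 on the minus strand. Mir214 gives its 5p arm at chr1:162223397-162223418 and its 3p arm at chr1:162223438-162223459 on the plus strand, 5444 bases after the end of the Mir199a-2 hairpin. Both chromosome 1 hairpins lie within the spans of the noncoding gene Dnm3os and of the dynamin gene Dnm3. Mir199a-1 lies within the span of Dnm2. Mir199b, with its 3p arm at chr2:32318524-32318545 on the plus strand, lies within that of Dnm1. The seed mate miR-761 lies at chr4:109017669-109017690 on the plus strand.

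How spots were laid out touches every result below. Each mouse probe was spotted as 2 neighbours in 1 of blocks 1 to 18 and again as 2 neighbours in 1 of blocks 19 to 36. Among mouse probes at or above 50 on an array, neighbouring spots stood at least 2-fold apart in 0.267% to 2.18% of cases, but the 2 sets of blocks did so for 4.01% to 19.5% of probes. The log2 values of the 2 sets correlated across probes at 0.92 on the control array of 24 h, at 0.75 on the knockdown array of 48 h and at 0.68 on the control array of 48 h. Median local background ran from 89 to 181 and was highest on that last array. Values are therefore given for both sets where these part in sign or size. In cultured cells, fewer cells of a type and less of a miRNA per cell cannot be told apart.

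The most intense of the 7 measured probes on every array was that of miR-199a-5p, although probes differ in how they bind, so this does not rank the miRNAs. miR-199a-5p is known to repress caveolin-1 in human lung fibroblasts. Its background-subtracted intensity was 1491, 3132 and 1044 in the knockdown at 24, 48 and 72 h, and 2706, 4414 and 2512 in the control. The knockdown was lower at each time point in these intensities, yet the groups overlapped, since the knockdown array of 48 h lay above the control arrays of 24 and 72 h. After quantile normalisation the mean log2 intensity of the control was 11.42 ± 0.78 (SD, n = 3) and that of the knockdown 10.52 ± 0.54 (SD, n = 3), and there too the groups overlapped. The knockdown minus control difference of -0.90 (95% interval -2.13 to 0.33) did not pass the test (limma adjusted p = 0.998).

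At 24 h the 2 sets of blocks gave the same answer for miR-199a-5p, with differences of -0.80 and -0.80. At 48 h they gave -0.23 in blocks 1 to 18 and -2.18 in blocks 19 to 36. The 4 spots on the knockdown array of 48 h read 5541 and 5244 in the first set, and 959 and 783 in the second. At 72 h even the sign parted, -2.74 against 1.35. There the control spots read 4406 and 4616 in the first set and -513 and 1538 in the second, the negative value beside a local background of 774. Neighbouring spots agreed closely on the knockdown array of 48 h, so a value of miR-199a-5p on that array depends on which set of blocks is read. Its mean difference over the 3 time points was -1.26 in blocks 1 to 18 and -0.54 in blocks 19 to 36. Under median scaling of the arrays it was -0.29, and at 72 h alone 0.93.

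The probe of miR-199b-5p, the 5p arm of the related hairpin in Dnm1, was dimmer. Its background-subtracted intensity was 76, 1.8 and 78.3 in the knockdown at 24, 48 and 72 h, and 217, 269 and 283 in the control. All 3 control arrays lay above all 3 knockdown arrays, also after normalisation, where the control mean was 8.50 ± 0.32 (SD, n = 3) and the knockdown mean 7.65 ± 0.23 (SD, n = 3). It was the only 1 of the 7 whose groups did not overlap. Over all tested probes, 4.30% lay lower in the knockdown without overlap and 2.96% higher. The difference was -0.86 (95% interval -1.86 to 0.15; limma adjusted p = 0.998) and kept its sign in both sets of blocks. It was -1.53 in blocks 1 to 18 and -0.23 in blocks 19 to 36, so its size rested on the first set. The second set was at or above 50 on 2 of 6 arrays, and the first on 5. The control spots of 48 h read 350 and 796 in the first set and -36 and -35 in the second. At that time point the difference was -2.33 in the first set and 0.55 in the second.

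The shared probe of miR-199a-3p and miR-199b-3p behaved otherwise. In human liver cancer cells miR-199a-3p is known to repress MTOR and MET. Its background-subtracted intensity was 38, 1066 and -11 in the knockdown at 24, 48 and 72 h, and 258, -27.3 and 497 in the control. It was thus high on the knockdown array of 48 h and on the control arrays of 24 and 72 h, under 50 on the other 3, and never measured on both lines at 1 time point. After normalisation the control mean was 8.50 ± 1.15 (SD, n = 3) and the knockdown mean 8.25 ± 1.58 (SD, n = 3). These wide spreads gave a difference of -0.25 (95% interval -2.31 to 1.82; limma adjusted p = 0.998).

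At single time points the knockdown level of the shared 3p probe was lower by at least 2.04-fold at 24 h, higher by at least 5.49-fold at 48 h and lower by at least 4.28-fold at 72 h. Each is a comparison of 2 arrays with no replicate check, against the floor of the dimmer array. Both sets of blocks gave these swings: 2.66 and 2.75 at 48 h, -2.31 and -2.56 at 72 h, and -0.87 and -1.16 at 24 h on the log2 scale. Their signs also held in all 8 alternatives run on single time points, but the sizes did not all hold. Under median scaling the 72 h difference was -1.50, beside -2.48 in the main processing, so the bounds above are those of the main processing only. The 4 spots of the knockdown array of 48 h lay between 728 and 1403. So the spot disagreement seen for both 5p probes was absent for the 3p probe, whose 2 sets were at most 1.56-fold apart on any array. Without the 48 h arrays its difference between the lines was -1.75 (limma adjusted p = 0.365), and without those of 72 h it was 0.87 (limma adjusted p = 1).

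**Figure D1:**
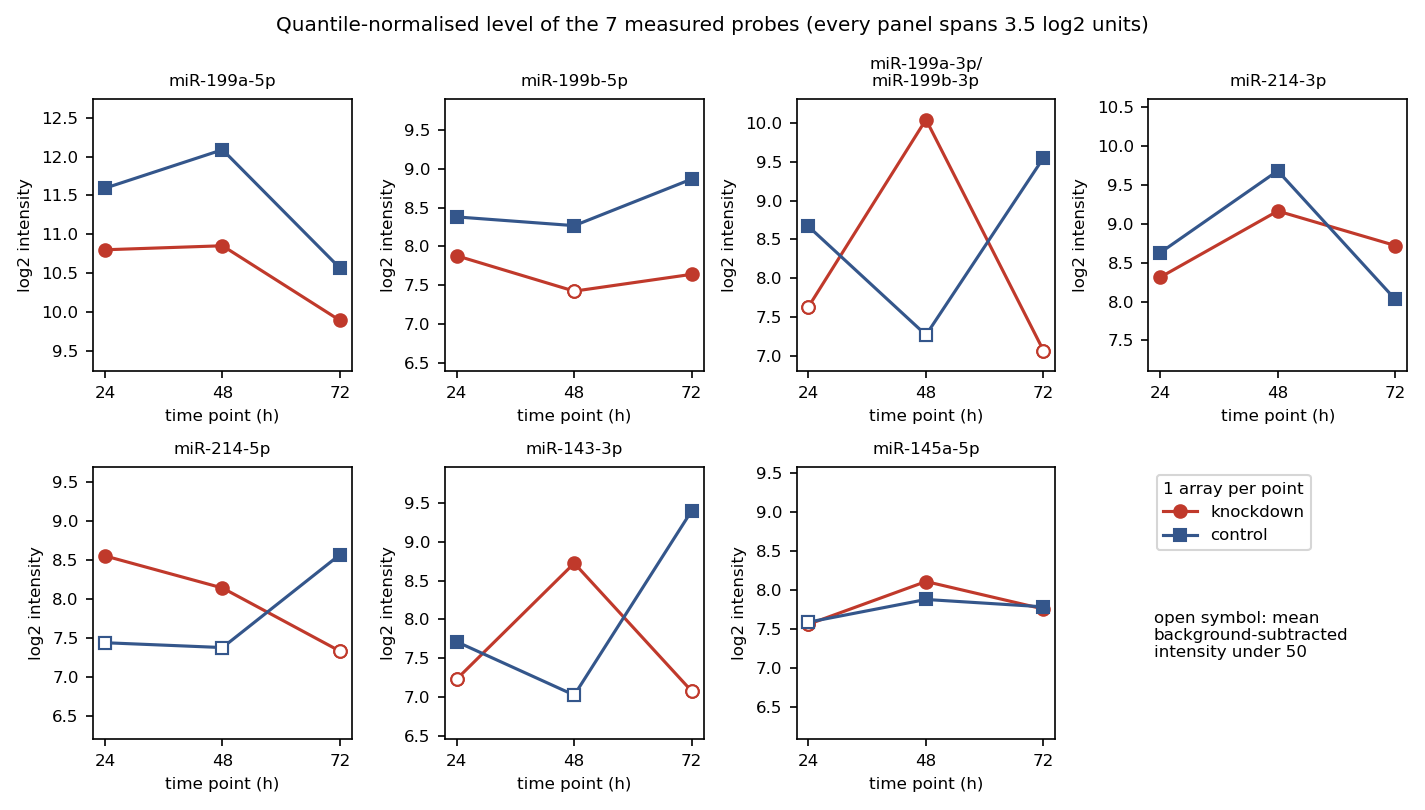
Quantile-normalised log2 intensity (vertical axis) of each measured probe against the time point in hours (horizontal axis), with knockdown arrays as circles and control arrays as squares, 1 array per point. Open symbols have a mean background-subtracted intensity under 50. miR-199a-5p and miR-199b-5p lie lower in the knockdown at all 3 time points, which for miR-199a-5p at 72 h turns under median scaling, to 0.93, while the shared miR-199a-3p and miR-199b-3p probe and miR-143-3p cross over at 48 h.

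The miR-214 probes showed no common direction. miR-214-3p, known to repress the Polycomb enzyme Ezh2 in mouse muscle cells, was at or above 50 on all 6 arrays and in both sets of blocks on each. Its background-subtracted intensity was 179, 464 and 331 in the knockdown at 24, 48 and 72 h, and 249, 655 and 91.5 in the control. The groups overlapped fully, with both the highest and the lowest value in the control. Both lines were brightest at 48 h. After normalisation the control mean was 8.78 ± 0.84 (SD, n = 3) and the knockdown mean 8.73 ± 0.43 (SD, n = 3). Their difference of -0.05 (95% interval -1.36 to 1.26; limma adjusted p = 0.998) had an interval too wide to call the lines alike. Its sign turned under median scaling, to 0.34, and in blocks 19 to 36, to 0.27. At 24 h the sets parted, with -1.04 in blocks 1 to 18 and 0.36 in blocks 19 to 36, while at 48 and 72 h they had 1 sign.

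The other arm, miR-214-5p, gave a background-subtracted intensity of 202, 130 and 8.25 in the knockdown at 24, 48 and 72 h, and 25.8, -11.8 and 199.3 in the control. The knockdown was the brighter line at 24 and 48 h and the dimmer one at 72 h, and again no time point measured it in both lines. The knockdown level was higher by at least 1.90-fold at 24 h and by at least 1.47-fold at 48 h, and lower by at least 2.17-fold at 72 h. After normalisation the control mean was 7.79 ± 0.67 (SD, n = 3) and the knockdown mean 8.01 ± 0.62 (SD, n = 3), a difference of 0.21 (95% interval -0.85 to 1.28; limma adjusted p = 0.998). Both sets of blocks kept the sign at each time point, but the difference over all 3 was -0.11 in blocks 19 to 36 and -0.06 without the 48 h arrays. On the log2 scale the 48 h difference was 1.22 in blocks 1 to 18 and 0.32 in blocks 19 to 36. That of 72 h was -0.66 and -1.66, and it was under 2-fold in blocks 1 to 18, under median scaling (-0.42) and under cyclic loess (-0.92). The 2 arms of miR-214 did not move together over the arrays (Pearson r = -0.62, n = 6).

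The seed mate miR-761, from its own hairpin on chromosome 4, offered a comparison with miR-214-3p. Its background-subtracted intensity was 58.5, 113 and 21.3 in the knockdown at 24, 48 and 72 h, and 208, 43 and 130 in the control. After normalisation the control mean was 8.16 ± 0.39 (SD, n = 3) and the knockdown mean 7.79 ± 0.32 (SD, n = 3). Its difference was -0.37 (95% interval -1.34 to 0.60; limma adjusted p = 0.998), and its r with miR-214-3p was -0.32 over the 6 arrays.

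The smooth muscle pair was close to background. miR-143-3p, known to repress the transcription factor Elk1 in mouse smooth muscle cells, had a background-subtracted intensity of -14, 469 and -40.5 in the knockdown at 24, 48 and 72 h, and 68.5, -60.8 and 590 in the control. It was thus clearly above 50 on 2 arrays, knockdown 48 h and control 72 h, and in each case in 1 set of blocks only. On the knockdown array of 48 h the spots read 1093 and 800 in blocks 1 to 18 and 2 and -19 in blocks 19 to 36. On the control array of 72 h they read 47 and 28 in blocks 1 to 18 and 1211 and 1074 in blocks 19 to 36. No array had both sets at or above 50, and the spots bright on 1 of these arrays were dim on the other.

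From these values the knockdown level of miR-143-3p was higher by at least 2.20-fold at 48 h and lower by at least 3.86-fold at 72 h. The 48 h difference was 2.79 on the log2 scale in blocks 1 to 18 and 0.27 in blocks 19 to 36, and that of 72 h was -1.22 and -2.88. Under median scaling the 72 h difference was -1.35. After normalisation the control mean was 8.05 ± 1.22 (SD, n = 3) and the knockdown mean 7.68 ± 0.91 (SD, n = 3). The difference was -0.37 (95% interval -1.88 to 1.14; limma adjusted p = 0.998). It became -1.40 without the 48 h arrays, 0.61 without those of 72 h and 0.45 in blocks 1 to 18. The opposite arm, miR-143-5p, was under 50 on all 6 arrays, with every spot between -82 and -16.

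miR-145a-5p, known to repress Klf4 in mouse smooth muscle cells, was faint on every array. Its background-subtracted intensity was 26.8, 115 and 64.3 in the knockdown at 24, 48 and 72 h, and 42.3, 67.3 and 55.8 in the control, at or above 50 on 4 of 6 arrays. The groups overlapped, with the highest and the lowest value both in the knockdown. After normalisation the control mean was 7.75 ± 0.15 (SD, n = 3) and the knockdown mean 7.81 ± 0.28 (SD, n = 3). The difference was 0.06 (95% interval -0.81 to 0.93; limma adjusted p = 0.998). At single time points it was -0.03, 0.23 and -0.03, all under the 2-fold used here. The sign at 24 and 72 h was not settled: at 72 h the sets of blocks gave -0.16 and 0.16 and median scaling 0.58, and at 24 h both arrays were under 50 and the sets gave -0.04 and 0.04. The probe of miR-145a-3p was at or above 50 on 2 arrays, the knockdown array of 24 h at 62.3 and the control array of 72 h at 53.5, and lay between 27.3 and 37.5 on the other 4. The levels of miR-143-3p and miR-145a-5p, which share a transcript, correlated at 0.40 over the 6 arrays.

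**Figure D2:**
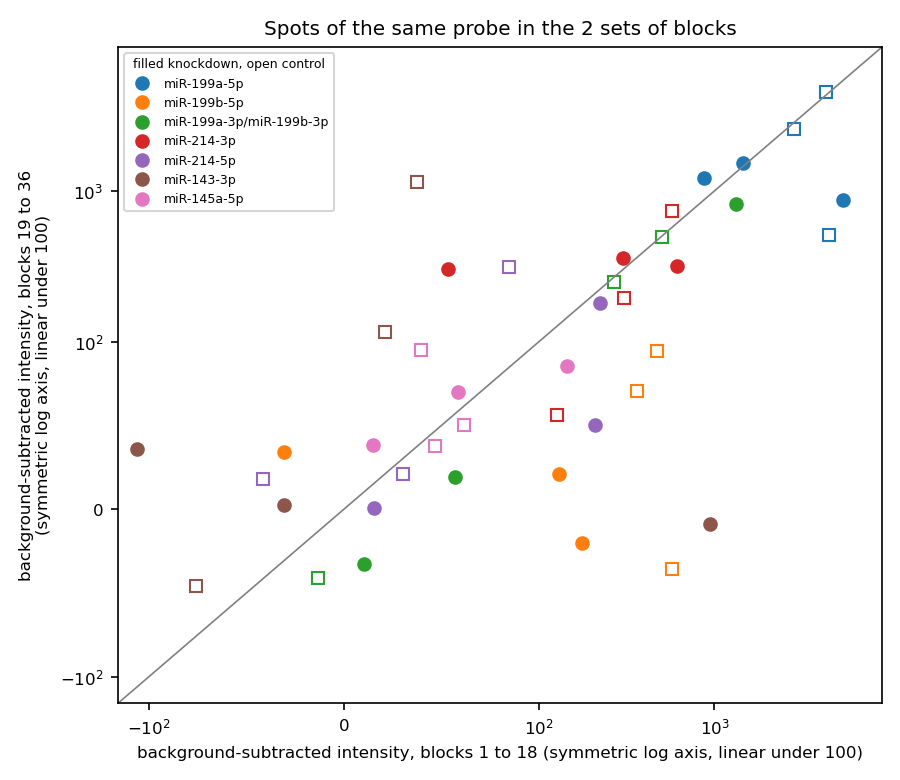
Mean background-subtracted intensity of a probe's 2 spots in blocks 1 to 18 (horizontal axis) against that of its 2 spots in blocks 19 to 36 (vertical axis), for the 7 measured probes on each array, with knockdown arrays filled and control arrays open; axes are symmetric log, linear under 100. Points on the diagonal agree. The points farthest from it belong to miR-143-3p, miR-199a-5p and miR-199b-5p.

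Counted together, 5 of the 7 measured probes had a negative and 2 a positive difference between the lines. Their median was -0.25, beside a median of -0.11 over all 372 tested probes. None of the 7 passed the adjusted p of 0.05 in limma, and neither did any of the 372 (0% called), where 1 had an unadjusted p under 0.05. Under median scaling both medians lay above 0, at 0.11 for the 7 and 0.24 for all tested probes. miR-199a-5p and miR-199b-5p were lower in the knockdown at all 3 time points, as were 7.26% of all tested probes; for miR-199a-5p this ended at 72 h under median scaling, and in blocks 19 to 36 for miR-199a-5p at 72 h and for miR-199b-5p at 48 h. None of the 7 was higher at all 3, as 6.45% of all tested probes were. The interval of a typical tested probe reached 1.29 on the log2 scale to either side, so differences of 2-fold could not be told from the spread between arrays.

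At 24 h, 2 of the 7 differed by at least 2-fold, miR-214-5p higher and the shared miR-199 3p probe lower, where 11.1% of eligible mouse probes did so (2.66% higher and 8.47% lower). At 48 h there were 3, the shared 3p probe and miR-143-3p higher and miR-199a-5p lower, where 34.7% did so (21.5% higher and 13.2% lower). The call of miR-199a-5p at 48 h ended under median scaling (-0.74), under the scale of the authors' ratios (-0.61) and in blocks 1 to 18 (-0.23), and that of miR-143-3p in blocks 19 to 36 (0.27). At 72 h there were 4, all lower, the shared 3p probe, miR-143-3p, miR-214-5p and miR-199b-5p, where 43.8% did so (25.3% lower and 18.5% higher). The call of miR-199b-5p at 72 h ended under median scaling (-0.24), under cyclic loess (-0.91) and in blocks 19 to 36 (-0.90). The call of miR-214-5p at 24 h uses its normalised values, and its bound of 1.90-fold is under 2-fold. That of the shared 3p probe at 24 h ended in blocks 1 to 18 (-0.87) and with the median of spots (-0.99). Median differences of the 7 were -0.48, 0.23 and -1.22, beside -0.12, 0.19 and -0.39 over all tested probes. Under median scaling the 72 h medians became -0.24 for the 7 and 0.60 for all, and 3 of the 7 were past 2-fold, the shared 3p probe and miR-143-3p lower and miR-214-3p higher, by 1.80 on the log2 scale. The share of all eligible probes past 2-fold under that scaling was not counted. The order lower, higher and lower in the knockdown at 24, 48 and 72 h held for 3 of the 7 and for 30.9% of all tested probes. For the shared 3p probe and miR-143-3p it held in all 8 alternatives; for miR-145a-5p it rested on differences of -0.03 at 24 and 72 h that turned sign in several. The opposite order held for none of the 7 and for 9.14% of all.

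**Figure D3:**
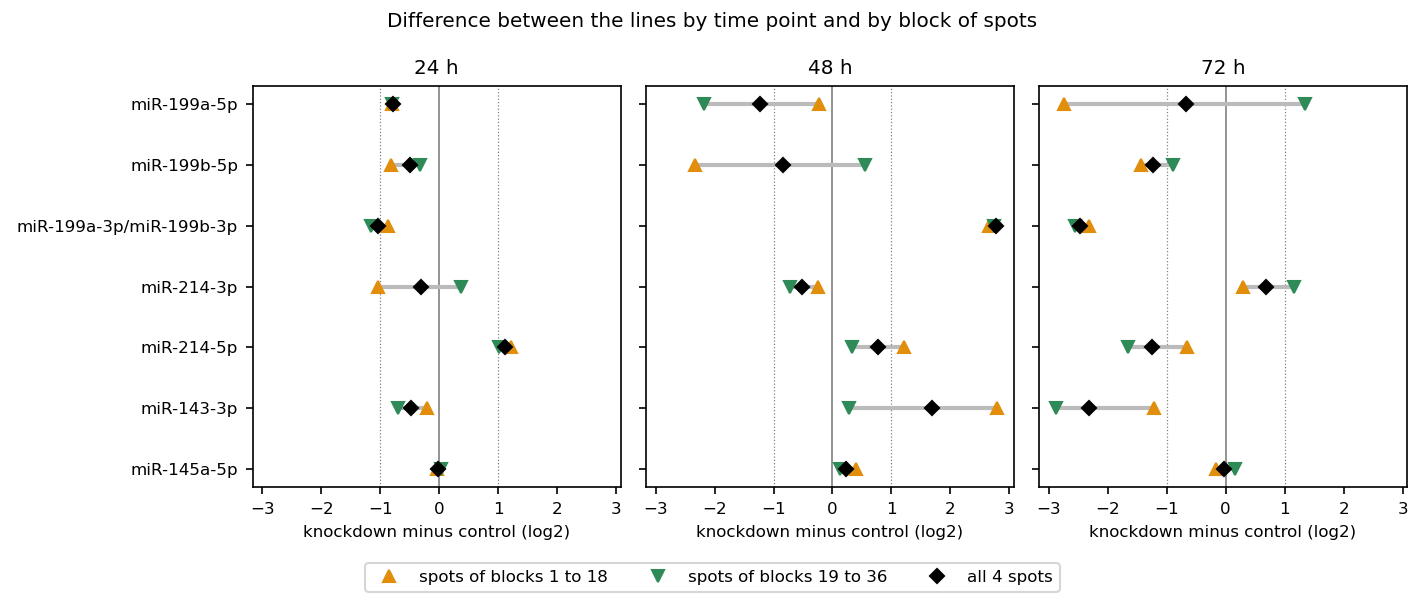
Knockdown minus control on the log2 scale (horizontal axis) for each measured probe (vertical axis) at 24, 48 and 72 h, from all 4 spots (diamonds), from blocks 1 to 18 (upward triangles) and from blocks 19 to 36 (downward triangles); dotted lines mark 2-fold. The shared miR-199a-3p and miR-199b-3p probe has its 3 symbols together in each panel, whereas those of miR-199a-5p at 72 h run from -2.74 to 1.35.

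Neither time nor its product with the line gave a call among these probes. Slopes per day over both lines ran from -0.48 ± 0.32 (SE) for miR-199a-5p to 0.38 ± 0.38 (SE) for miR-143-3p (limma adjusted p = 0.999 each, 0% of all tested probes called). The difference of slopes, knockdown minus control, ran from -1.18 ± 0.43 (SE) per day for miR-214-5p to 0.50 ± 0.74 (SE) for miR-214-3p (limma adjusted p = 0.931 each, 0% called). The value of miR-214-5p rests in part on the 3 arrays where it was under 50. The 48 h arrays carry no weight in a slope over evenly spaced time points, so a swing at 48 h cannot show in these fits.

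Over the 6 arrays the 7 probes did not rise and fall as 1 group. Of their 21 pairs, 12 had a positive correlation, and the median Pearson r was 0.13, beside 0.02 over all pairs of tested probes. These coefficients rest on 6 arrays that all probes share, and are given as a description. The highest was 0.92, between the shared miR-199 3p probe and miR-143-3p, whose hairpins are on different chromosomes. Both probes were under 50 on the knockdown arrays of 24 and 72 h and on the control array of 48 h. Both were brightest on the knockdown array of 48 h and the control array of 72 h, and the coefficient sets these against dimmer arrays. No array had both sets of blocks of miR-143-3p at or above 50, so its bright values there come from 1 set of blocks each. Between miR-199a-5p and the shared 3p probe r was -0.04, and between miR-199b-5p and that probe 0.13. The shared probe reads the 3p arms of Mir199a-1, Mir199a-2 and Mir199b together, so these values do not compare arms of 1 hairpin. That probe was at or above 50 on 3 of 6 arrays, and the sets of blocks of miR-199a-5p stood up to 10.6-fold apart. miR-199a-5p correlated at 0.32 with miR-199b-5p and at 0.57 with miR-214-3p.

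**Figure D4:**
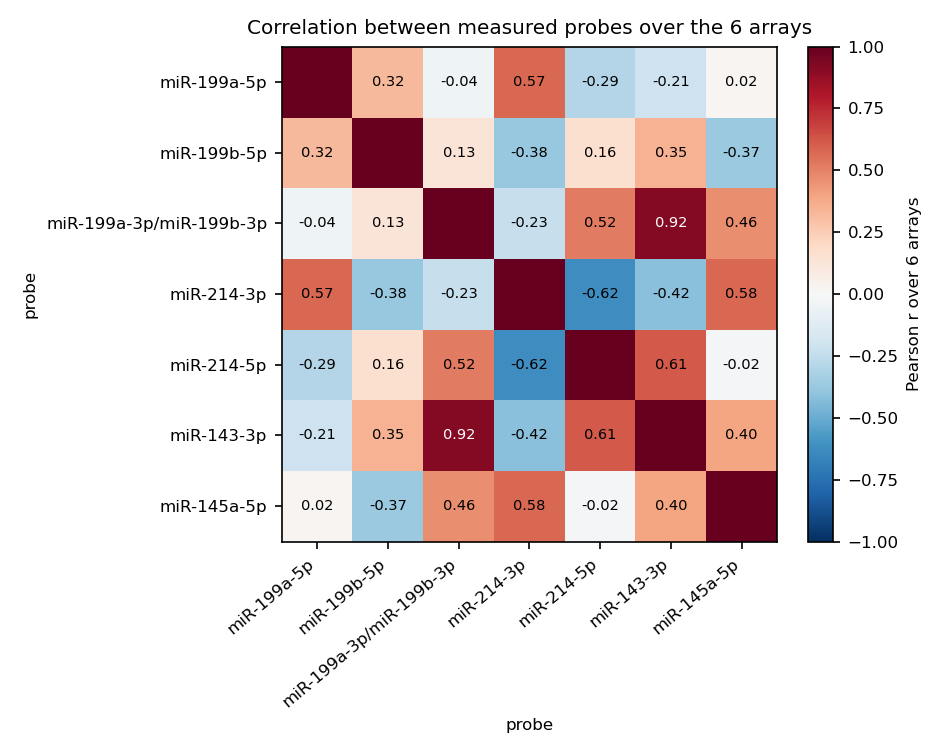
Pearson r over the 6 arrays between the normalised log2 intensities of the 7 measured probes, named on both axes, with the colour scale from -1 to 1. The shared miR-199a-3p and miR-199b-3p probe and miR-143-3p stand out at 0.92, and the 2 arms of miR-214 at -0.62. Both probes of the pair at 0.92 were under 50 on the knockdown arrays of 24 and 72 h and on the control array of 48 h.

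Outside these probes, the 2 closest in pattern to the shared miR-199 3p probe were those of miR-301a-3p (r = 0.99) and miR-34c-5p (r = 0.99). In all, 29 of 364 other tested probes correlated with it at 0.9 or above. For miR-143-3p the closest were miR-7a-5p (r = 0.98) and miR-221-3p (r = 0.98), and 13 of 364 reached 0.9. miR-214-3p was closest to miR-26a-5p (r = 0.98) and miR-142-5p (r = 0.96), and miR-214-5p to miR-325-3p (r = 0.96) and miR-181d-5p (r = 0.94). No other probe reached 0.9 with miR-199a-5p, miR-199b-5p or miR-145a-5p. Their closest were the shared probe of miR-466a-5p and miR-466p-5p (r = 0.83), miR-1843a-5p (r = 0.84) and miR-27b-3p (r = 0.90) in that order, followed by let-7e-5p (r = 0.80), miR-883b-5p (r = 0.83) and miR-365-3p (r = 0.87).

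Other miRNAs known from stromal cells gave a median difference of -0.23 over 12 measured of 23 probes, 3 higher and 9 lower in the knockdown, with 0 past the test. Their intensities, summed over the list, ran from 7301 to 27399 on the knockdown arrays and from 12833 to 16935 on the control arrays. At 24, 48 and 72 h their median was -0.57, 0.89 and -1.26, an order of signs that the 7 probes and all tested probes also had. Of the 23 epithelial probes 4 were measured, miR-200c-3p, miR-141-5p, miR-375-3p and miR-375-5p, with 2 higher and 2 lower and a summed intensity from 252 to 807 in the knockdown and from 471 to 918 in the control. Their medians by time point were 0.18, -0.52 and -0.33. The probes of miR-200a, miR-200b, miR-429, miR-192, miR-203, miR-205 and miR-215 were under 50 on all 6 arrays. Those of miR-200c-3p and miR-141-5p were at or above 50 on 5 of 6 arrays each, whereas miR-141-3p was under 50 on all 6. Most probes of this list were thus not measured, as were 754 of all 1126 mouse probes, so this alone does not mark the list out. Striated muscle markers had 2 of 9 probes measured and a summed intensity from 242 to 525 in the knockdown and from 538 to 664 in the control, with medians of 0.11, 0.19 and -0.84. Endothelial and blood markers had 5 of 14 measured, from 1272 to 2742 and from 1687 to 2405, with medians of -0.65, -0.11 and -0.05. The part of other cells in the values of the 7 probes was not tested.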

How the data were processed

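Per the labels' protocols, total RNA was labelled with the dye Hy3 for locked nucleic acid arrays of miRNA probes, with 1 colour used. The authors deposited unscaled spot intensity, as foreground and after background subtraction, for 15840 spots an array, per the file headers; scanner software and genome build are not given in the sources used here. The authors also deposited a ratio per probe, which equalled the median background-subtracted intensity of its spots divided by 1 number per array (313.5 to 397; 100% of filled mouse values within a relative 1e-06); how that number was chosen is unknown, and its column medians were 0.259 to 0.514, uncentred. Columns carry the sample number that each label gives.

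Normexp background correction (offset 50) was run in limma 3.58.1 under R 4.3.3, spots were averaged as log2 intensity, and arrays were quantile normalised over 3439 mouse, viral and unnamed probes. The number of arrays limits the precision. A mouse probe was tested at a mean background-subtracted intensity of 50 or more on at least 3 arrays (372 of 1126). Lines were compared in limma with time as a factor (trend, robust), slopes with the line as covariate, all adjusted by Benjamini-Hochberg over the 372. At single time points, 2-fold was used over probes at 50 or more on at least 1 of the 2 arrays; the fold was bounded where 1 side was under 50, taking for that side its own level or, where higher, the array's dimmest normalised mouse probe that reached 50.

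Every member probe is named; also named are seed mates, the 2 tested probes with the highest r to each measured member, and marker lists. The members, lists and tests were chosen with earlier results of these data known. The separate readings of blocks 1 to 18 and 19 to 36, and the median of spots, were added after the data were seen. Alternatives covered background, offset, scaling, filter, the authors' ratios (0.15 added before log2, blanks as 0), the variance model, the time factor, the fold and leaving out each time point.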

Additional observations from a re-analysis of the deposited data

Results flagged for a closer look

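Of the measured probes, 3 differed by at least 2-fold between the lines in opposite directions at different time points. The share of all tested probes that did so was not counted, so this number has no background beside it. Differences of 2-fold were common, in 11.1%, 34.7% and 43.8% of eligible mouse probes at 24, 48 and 72 h. The order lower, higher and lower held for 30.9% of all tested probes. For these 3 probes the change of direction was not tested, since each line had 1 array at each time point. The difference of slopes passed for none of these 3 probes. It cannot show a turn at 48 h, because the middle of 3 evenly spaced time points carries no weight in a slope. The shared probe of miR-199a-3p and miR-199b-3p had knockdown minus control differences (log2) of -1.03 at 24 h, 2.77 at 48 h and -2.48 at 72 h. For miR-143-3p it was 1.70 at 48 h and -2.32 at 72 h. For miR-214-5p it was 1.12 at 24 h and -1.24 at 72 h, the latter under 2-fold in blocks 1 to 18 (-0.66), under median scaling (-0.42) and under cyclic loess (-0.92). For miR-143-3p the 48 h value was under 2-fold in blocks 19 to 36 (0.27). For the shared 3p probe the 24 h value was under 2-fold in blocks 1 to 18 (-0.87) and with the median of spots (-0.99). In each of these cases 1 of the 2 arrays was under 50, so the sizes are those of the normalised values and not of 2 measured levels.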

How the results depend on the processing

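Across all 372 tested probes the comparison of the lines called 0 to 3 probes when a time point was left out, the 3 calls coming without 48 h, and none of them was a member; no other setting gave a call for the lines, and none did for slopes. Without a replicate block, that is with the time factor left out, it also called 0, with 9 at an unadjusted limma p under 0.05, beside 1 with the factor kept. At 24, 48 and 72 h the deviations of the 2 arrays from their line means correlated across probes at r = -0.30, -0.52 and -0.34. The 2 arrays of 1 time point thus tended to part rather than to move together, and the cause was not tested. The difference of slopes has no residual degree of freedom on 4 arrays, so it was not fitted without a time point. The differences of miR-199a-5p (-1.26 to -0.29) and miR-199b-5p (-1.66 to -0.23) stayed below 0 in all 13 alternatives. Among these, changing the variance model or leaving out the time factor cannot alter a difference, and gave the main values of -0.90 and -0.86 again. The other alternatives reread the same arrays or leave some out, so their count is no measure of replication.

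Signs turned as follows, the cause not tested. Median scaling gave 0.11 for the shared miR-199 3p probe and 0.34 for miR-214-3p, and the authors' ratios 0.025 for miR-214-3p. Blocks 19 to 36 gave 0.27 for miR-214-3p and -0.11 for miR-214-5p, and blocks 1 to 18 gave 0.45 for miR-143-3p. Leaving out 1 time point each gave -1.75 to 0.87 for the shared 3p probe, -0.42 to 0.19 for miR-214-3p, -1.40 to 0.61 for miR-143-3p, -0.24 to 0.94 for miR-214-5p and -0.028 to 0.10 for miR-145a-5p. Over the alternatives, the members past the fold numbered 1 to 3 at 24 h, 2 to 5 at 48 h and 2 to 6 at 72 h. The median of spots left 1 at 24 h, 1.5-fold took 5 at 48 h, and cyclic loess left 2 at 72 h. The shares of all eligible probes under these settings were not counted, so these numbers have no background beside them. The shared 3p probe, miR-214-5p and miR-143-3p were at or above 50 on 3 of 6 arrays, which limits them to bounds.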
